A study of Mus musculus with 4 samples.

Results

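Dopamine receptor and striatal signaling genes were followed across the tissue of 4 brain sections. The genes were 7 listed symbols, found in the feature table of all 4 sections among 32285 genes: Drd1 and Drd2, which encode dopamine receptors; Adora2a, which encodes an adenosine receptor; Ppp1r1b, Rgs9 and Pde10a, which act downstream of these receptors; and Dr1. Dr1 (down-regulator of transcription 1) encodes a repressor that binds the TATA-binding protein and is no dopamine receptor, and it was kept as a contrast because its name is easily mistaken for one. The first 6 are called the striatal genes below.

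Dopamine acts on medium spiny neurons, the projection neurons of the striatum, through receptors with opposite effects on cyclic AMP: the D1 receptor (Drd1) raises it and the D2 receptor (Drd2) lowers it. The classical view places D1 receptors in neurons of the direct pathway and D2 receptors, together with the adenosine receptor encoded by Adora2a, in neurons of the indirect pathway. Ppp1r1b encodes DARPP-32, an inhibitor of protein phosphatase 1 that protein kinase A switches on; Pde10a encodes a phosphodiesterase that breaks down cyclic nucleotides; and Rgs9 encodes a regulator that shortens G protein signals. Outside the striatum, these receptors and enzymes are found at lower levels, including in cortex.

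The data were spatial transcriptomes (10x Visium) of coronal sections through the dorsal hippocampus, in which RNA is captured on an array of spots, each covering several cells or parts of cells, and counted as unique molecular identifiers (UMIs). Each of 4 male mice gave 1 section: 2 mice were trained in active place avoidance, in which a rotating arena carries a shock zone, and 2 were untrained mice that spent the same sessions without shock. All 4 carried ArcCreERT2::eYFPflx on a C57BL/6 background, in which Cre activity depends on both the Arc promoter and tamoxifen, were 3 to 4 months old, received 4-hydroxytamoxifen under isoflurane before the retention test, and were killed 3 days after it. The comparison asked which transcripts differ between trained and untrained mice during the offline upkeep of a memory.

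The sections held 2359 to 3055 spots and 3560294 to 10330015 UMIs, with a median of 1048 to 2493 UMIs per spot. The untrained 1 section was the shallowest by each of these measures. Spots were assigned to 14 regions by marker genes that include none of the 7 genes; the striatum was set by 7 markers that include Scn4b, Rasd2, Syndig1l, Gpr6, Rarb and Six3. The labels name the tissue as hippocampus, but each section also held cortex, thalamus, hypothalamus and a band of striatum. The striatum comprised 198 spots in trained 1, 166 in trained 2, 68 in untrained 1 and 87 in untrained 2, which was 6.91%, 5.43%, 2.88% and 3.27% of the spots. Both trained sections thus held a larger share of striatum than either untrained section. Summed striatum markers reached 1585 to 2626 counts per 1000000 UMIs (CPM) there. Markers of dopamine neurons, whose cell bodies lie in the midbrain, summed to 11.9 to 59.7 CPM, and 2 of those 4 markers were at 0 in each section. Levels are given on that scale, relative to all UMIs of the same spots; since each library tags the 3′ end of a transcript, no correction for length was made and the 7 genes are not ranked against each other.

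In GRCm38 coordinates of the GENCODE annotation, the 7 genes lie on 6 chromosomes and all are annotated as protein coding: Drd1 at chr13:54051183-54055705 on the minus strand, Drd2 at chr9:49340627-49408177 on the plus strand, Adora2a at chr10:75316877-75334784 (plus), Ppp1r1b at chr11:98348404-98357796 (plus), Rgs9 at chr11:109225355-109298129 (minus), Pde10a at chr17:8525372-8986648 (plus) and Dr1 at chr5:108268897-108280526 (plus). None overlapped another gene on its own strand. Ppp1r1b overlapped 1700003D09Rik and Pde10a overlapped Gm15425, Gm17087 and Gm15426 on the opposite strand; the counting was not stated to use strand in the sources used here, so reads of these pairs may not be told apart.

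Because 6 of the genes shared a pattern of levels over the tissue that the like-named Dr1 did not, promoters of 3 of them are shown beside that of Dr1. RefSeq (GRCm38.p6) gave promoter entries for 5 of the 7 genes and none for Ppp1r1b and Adora2a. The 250 bases before the start of a RefSeq transcript are printed 5′ to 3′ on the strand of the gene. RefSeq starts can differ from those of the GENCODE genes given above, so that a window lies wholly or partly inside that gene (Drd1, Pde10a) or some way before it (Drd2). In the sequences, capitals mark a GC box (GGGCGG or its reverse complement CCGCCC) or a TATA box (TATAAA or TTTATA).
Drd1 (chr13:54055659-54055908, minus strand): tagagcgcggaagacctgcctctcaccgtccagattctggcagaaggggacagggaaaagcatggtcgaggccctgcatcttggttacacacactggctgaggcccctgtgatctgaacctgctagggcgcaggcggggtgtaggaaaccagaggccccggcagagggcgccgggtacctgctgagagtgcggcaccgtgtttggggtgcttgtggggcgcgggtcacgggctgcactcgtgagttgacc
Drd2 (chr9:49340153-49340402, plus strand): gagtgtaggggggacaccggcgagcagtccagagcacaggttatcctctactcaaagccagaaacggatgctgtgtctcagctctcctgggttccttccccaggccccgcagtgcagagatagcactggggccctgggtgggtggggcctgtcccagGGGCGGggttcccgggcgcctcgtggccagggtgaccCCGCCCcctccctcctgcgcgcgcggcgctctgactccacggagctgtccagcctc
Rgs9 (chr11:109298182-109298431, minus strand): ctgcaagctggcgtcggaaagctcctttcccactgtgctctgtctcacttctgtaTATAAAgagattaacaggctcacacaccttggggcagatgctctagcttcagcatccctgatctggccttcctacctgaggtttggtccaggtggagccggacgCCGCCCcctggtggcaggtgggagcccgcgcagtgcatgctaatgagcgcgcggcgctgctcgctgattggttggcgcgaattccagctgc
Dr1 (chr5:108268647-108268896, plus strand): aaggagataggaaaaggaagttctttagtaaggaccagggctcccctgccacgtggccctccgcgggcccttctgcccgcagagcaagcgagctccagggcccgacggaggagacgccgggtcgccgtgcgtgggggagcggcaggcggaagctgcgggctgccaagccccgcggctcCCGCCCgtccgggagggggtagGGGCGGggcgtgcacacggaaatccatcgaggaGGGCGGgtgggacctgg
The Dr1 promoter held 3 GC boxes and 25 CpG dinucleotides, more CpG than in 89.3% of the 32851 mouse promoters of this length. The Drd2 promoter held 2 GC boxes and 15 CpG, and this Drd1 promoter held no GC box and 15 CpG. A second Drd1 entry (chr13:54054781-54055030) held 1 GC box and 5 CpG. Rgs9 had 1 GC box and the 1 TATA box among these windows, and of the 2 Pde10a entries, both inside the GENCODE gene and not printed, the first (chr17:8801495-8801744) had 1 GC box and 21 CpG. Of all mouse promoters, 32.7% held a GC box and 12.4% a TATA box, and the median promoter had 6 CpG. The letters are a description of these windows, and nothing was measured on them.

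The 6 striatal genes were concentrated in the band of striatum in every section, and Dr1 was not. In the sum of the 6 genes, striatum spots held 2766 CPM in trained 1, 3614 in trained 2, 2011 in untrained 1 and 2503 in untrained 2. All other spots together held 231, 188, 243 and 208 CPM in the same order, so that the lowest striatum value was above every value outside it. A single striatum spot held up to 85 UMIs of these genes in trained 2 and up to 16 in untrained 1.

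**Figure D1:**
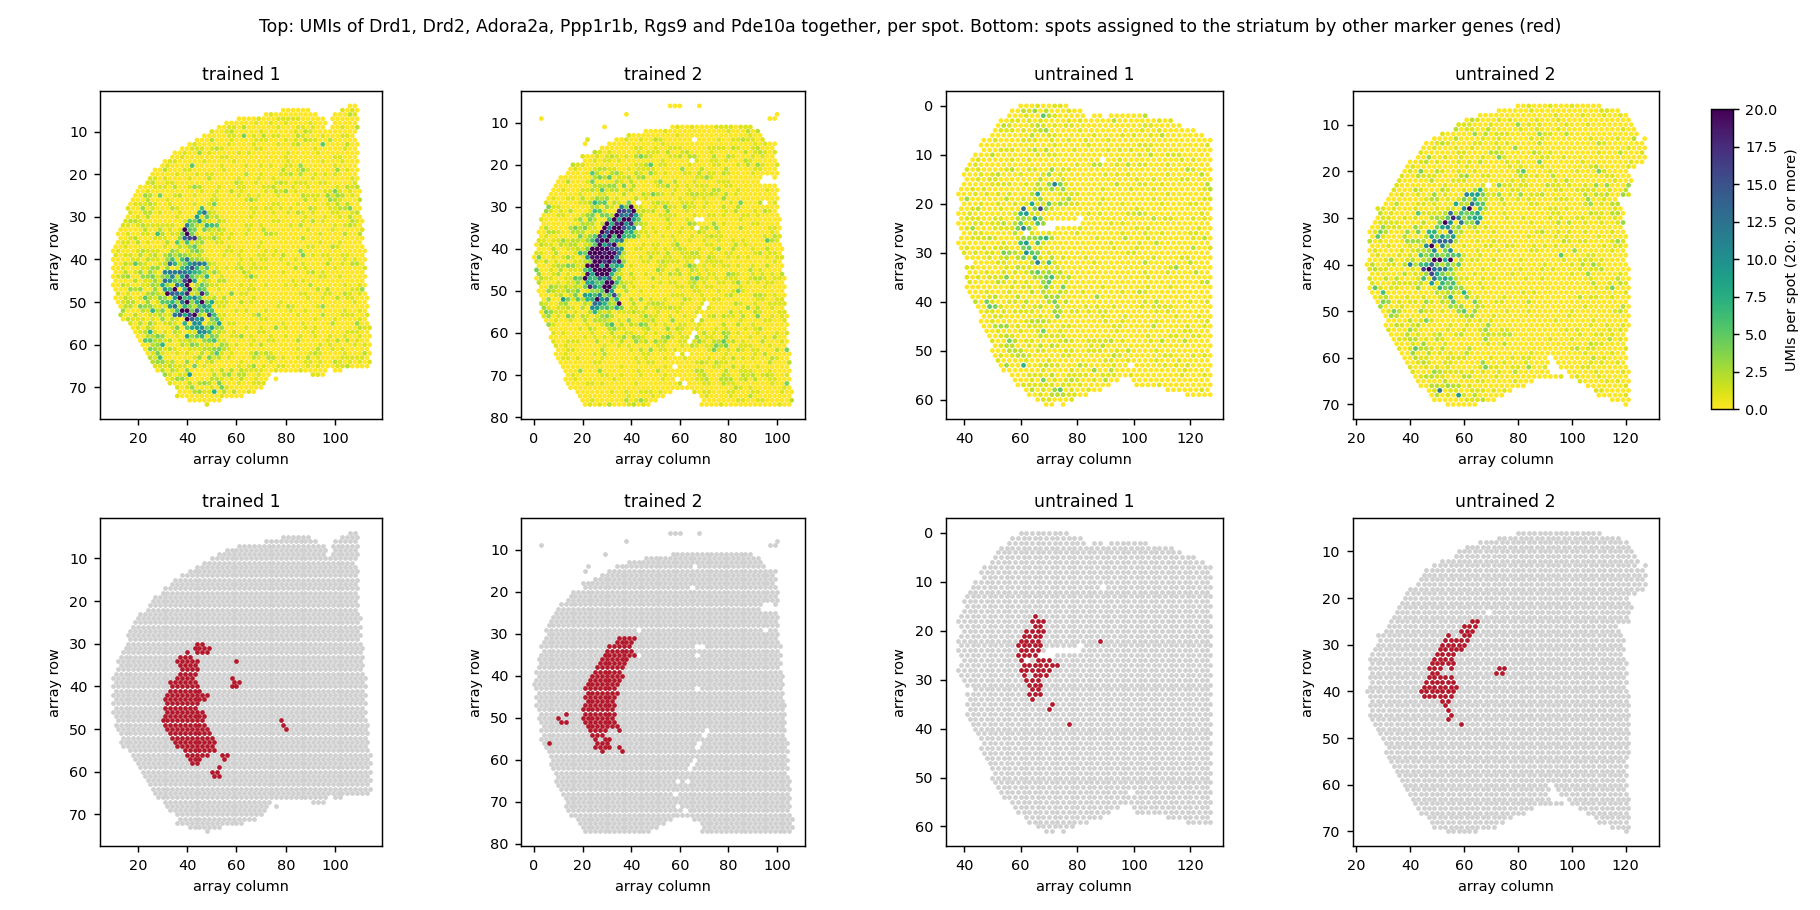
Each point is a spot at its array column and row in the 4 sections; the top panels show the UMIs of Drd1, Drd2, Adora2a, Ppp1r1b, Rgs9 and Pde10a together (20 stands for 20 or more) and the bottom panels show in red the spots assigned to the striatum by other markers (198, 166, 68 and 87 spots). High counts of the 6 genes fill the same band as the red spots and are scarce elsewhere.

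Among the receptors, Drd1 was at 115 CPM in trained 1, 188 in trained 2, 102 in untrained 1 and 144 in untrained 2 in the striatum. Outside it, Drd1 was at 12.6, 11.2, 19.2 and 9.49 CPM. Every striatum value was thus more than 5-fold the value outside in the same section, from 5.33-fold in untrained 1 to 16.7-fold in trained 2. Drd2 was at 113, 175, 42.6 and 132 CPM in the striatum, and at 8.92, 9.44, 6.68 and 6.96 CPM outside. The untrained 1 value of Drd2 rested on 5 UMIs and was the lowest of the 4. Adora2a, which the classical view places in the same neurons as Drd2, was at 242, 294, 153 and 241 CPM in the striatum against 9.82, 8.39, 10.2 and 12.02 CPM outside. Its ratio of striatum to outside, 15.1 to 35.0, was the highest among the 7 genes in each section, although Drd2 came close in untrained 2 with 19.0 against 20.1.

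Of the signaling genes, Ppp1r1b (DARPP-32) was at 1413 CPM in trained 1, 1642 in trained 2, 1082 in untrained 1 and 1164 in untrained 2 in the striatum. Outside the striatum it was at 123, 85.5, 137 and 117 CPM, so its ratio ran from 7.91 to 19.2. Of its 5283 UMIs in all 4 sections, 2842 lay outside the striatum. Rgs9, the G protein regulator, was at 319, 461, 187 and 299.8 CPM in the striatum and at 18.2 to 25.1 CPM outside. Pde10a, the phosphodiesterase, was at 564, 854, 443 and 522 CPM in the striatum and at 43.8 to 56.7 CPM outside. For each of the 6 striatal genes, trained 2 had the highest and untrained 1 the lowest level in the striatum.

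Dr1 was at 29.8 CPM in trained 1, 30.2 in trained 2, 42.6 in untrained 1 and 19.5 in untrained 2 in the striatum, on 5 to 24 UMIs, and at 32.2 to 43.2 CPM outside. It was lower in the striatum in 3 of 4 sections and higher in untrained 1, where it rested on 5 UMIs. Between 1.99% and 6.11% of the Dr1 UMIs of a section lay in the striatum, beside 3.30% to 7.68% of all UMIs. For the 6 striatal genes this share ran from 15.4% (Drd1, untrained 1) to 74.4% (Adora2a, trained 2). The share was lowest in untrained 1 for each of the 6, the section with the fewest striatum spots.

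The regions were then compared in 1 model of the sums per region and section, with the section as a block, over 7350 genes (edgeR's quasi-likelihood test with Benjamini-Hochberg adjustment). Of the 7 genes, 6 were higher in the striatum than in the mean of the other regions, where 12% of all genes tested were called higher and 6.84% lower. The log2 differences were 5.45 (SE 0.18, edgeR adjusted p = 3.20e-51) for Adora2a, 5.13 (SE 0.25, 9.47e-36) for Drd2 and 4.17 (SE 0.21, 1.42e-35) for Drd1 among the receptors. For the signaling genes they were 4.16 (SE 0.14, 2.58e-53) for Rgs9, 3.83 (SE 0.10, 2.26e-63) for Pde10a and 3.79 (SE 0.09, 1.27e-67) for Ppp1r1b. Dr1 differed by -0.34 (SE 0.22, edgeR adjusted p = 0.329) and was not called. The median over the 6 striatal genes was 4.16, beside 0.02 over all genes tested. These p-values measure the spread between sums, of which a section gives up to 14. A gene was tested only if it had enough counts in some of the sums. Drd2 and Adora2a reached at most 43.2 CPM in any other region, so they may have passed this filter through the striatum sums. For such genes a high level in the striatum was partly a condition of being tested, which limits the comparison with all genes. Both were also called with no filter on low counts. In bulk spots, fewer cells of a type and less RNA per cell cannot be told apart.

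**Figure D2:**
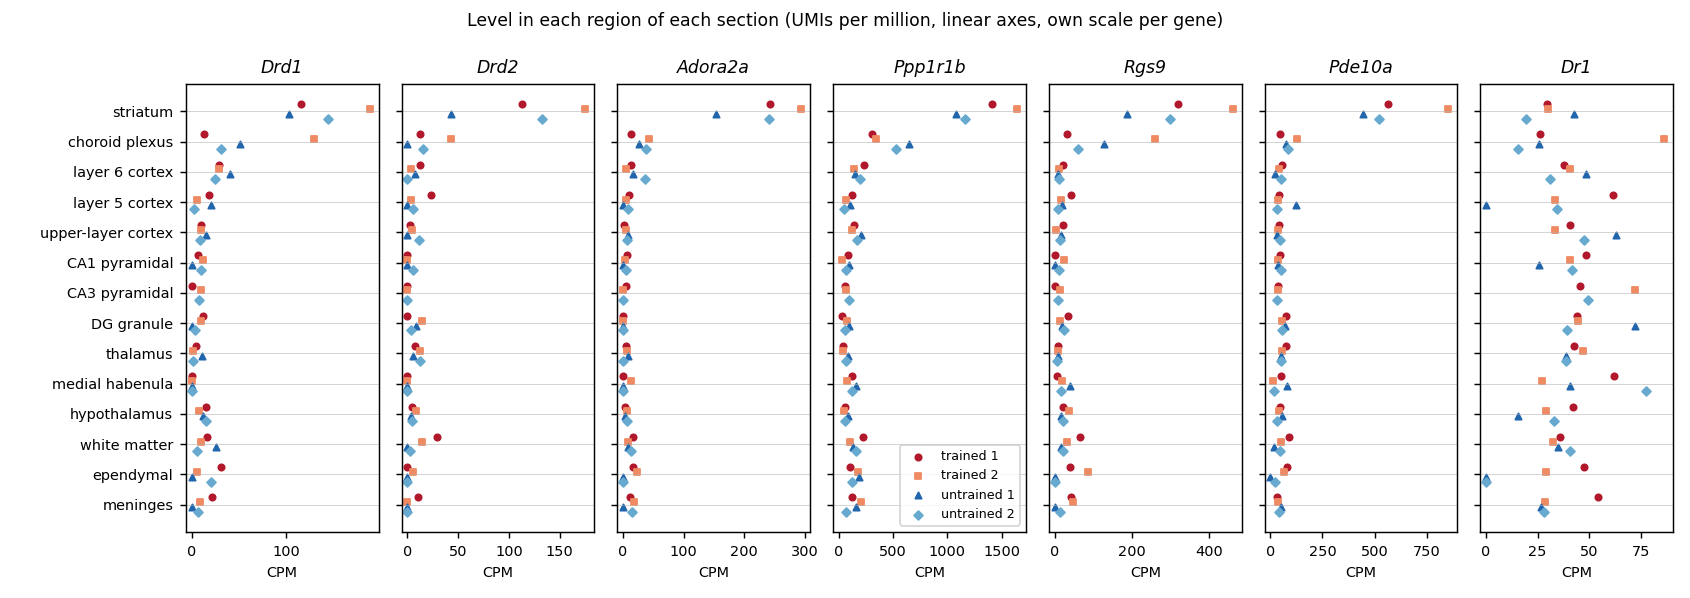
Points give the level of each gene in CPM (x axis, linear, its own scale for each gene) in each of 14 regions (y axis) for the 4 sections; CA3 of untrained 1, which held 5 spots, is not drawn. The striatum points of the 6 striatal genes lie to the right of almost all others (Ppp1r1b 1082 to 1642 CPM), whereas Dr1 at 19.5 to 42.6 CPM in the striatum lies among the other regions.

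In the order of region means, the striatum came first for all 6 striatal genes and the choroid plexus came after it. For Ppp1r1b (1325 against 456 CPM), Adora2a (233 against 30.1) and Pde10a (596 against 84.1) the ranges over sections of these 2 neighbors did not overlap. For Drd1 (137 against 56.2), Drd2 (116 against 17.9) and Rgs9 (317 against 120.4) they did. Below the choroid plexus nearly all neighbors overlapped; the exceptions were Ppp1r1b between the choroid plexus and layer 6 of the cortex, and Drd1 between the thalamus and the medial habenula, where it was at 0. For Dr1, the means ran from 19.1 CPM (ependymal) to 55.8 CPM (CA3, 3 sections), the striatum was 12th of the 14, and every pair of neighbors overlapped.

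Outside the striatum, 20 of the other 91 tests of a gene in a region were called, 7 higher and 13 lower, beside 9.87% of all tests called higher and 6.52% lower. In each of these tests the mean of the other regions included the striatum. A gene high in the striatum thus has lower differences elsewhere by construction, and the part of this in the 13 lower calls was not tested. In layer 6 of the cortex, Drd1 was at 29.4 CPM in trained 1, 28.8 in trained 2, 40.3 in untrained 1 and 24.6 in untrained 2. That was a narrow range, on 4 to 22 UMIs per section, and above the 9.01 to 15.8 CPM of the upper layers. Drd1 was higher there than in the mean of the other regions by 1.54 on the log2 scale (SE 0.36, edgeR adjusted p = 9.79e-04), where 7.35% of all genes were. Layer 6 borders the striatum: 29 of its 74 spots, 51 of 143, 2 of 41 and 25 of 56 lay within 3 array steps of the band. Without all such spots of the other regions the difference was 1.51 (edgeR adjusted p = 0.0294), but without averaging the marker scores over neighboring spots it was 0.70 (adjusted p = 0.333).

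Ppp1r1b had the most calls outside the striatum, again against a mean that included the striatum. It was lower in the thalamus (-1.41, SE 0.15, edgeR adjusted p = 6.02e-14), the hypothalamus (-1.24, 1.30e-10) and layer 5 of the cortex (-0.88, 3.30e-04), regions where 15.6%, 12.7% and 5.86% of all genes were called lower. It was higher in the choroid plexus by 2.10 (SE 0.20, edgeR adjusted p = 7.69e-16), where 8.69% of genes were. The 4 sections held 306, 345, 643 and 529 CPM of Ppp1r1b in the choroid plexus, on 47, 8, 25 and 69 UMIs. These 4 calls, and a lower Rgs9 in the thalamus (-1.76, SE 0.28, edgeR adjusted p = 8.77e-08), held under every alternative run, but the choroid plexus difference was 0.67 without neighbor averaging and 1.25 with Leiden clusters. Ppp1r1b was also called lower in CA1 (-1.18), CA3 (-0.98) and the dentate gyrus (-1.19), where 4.98%, 4.83% and 6.99% of genes were lower, but in CA1 the sign turned to 0.33 without averaging over neighboring spots, the dentate call was lost in that setting too, and the CA3 call was lost with limma voom and without trained 1.

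The other choroid plexus calls rested on very few UMIs. Drd1 had 2, 3, 2 and 4 UMIs there, Adora2a 2, 1, 1 and 5, and Rgs9 5, 6, 5 and 8. Their log2 differences of 1.997, 2.12 and 1.96 were 0.34, 0.94 and 0.86, and no longer called, when spots within 3 steps of the striatum band were left out. That removed 1 of 63, 4 of 12, 5 of 27 and 26 of 40 choroid plexus spots. Drd2 was called higher in the white matter (1.52, edgeR adjusted p = 0.00570) and the thalamus (1.18, adjusted p = 0.0121), where 14.7% and 18.9% of all genes were. Rgs9 was called lower in CA3 (-1.91) and in layer 6 (-1.26, where 3.31% of genes were), and Pde10a in layer 5 (-0.67) and the hypothalamus (-0.49); each of these 4 calls was lost under 5 or more of its 10 or 11 alternatives. The white matter levels of Drd2, 29.3, 14.2, 0 and 2.71 CPM, differed widely, and both Drd2 calls were lost with limma voom and with clusters in place of the marker regions.

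Some genes had no UMI in a region. Adora2a was at 0 in the dentate gyrus, among 843412 UMIs of 298 spots in the 4 sections together, which allows a level of up to 3.56 CPM (3 counts) and a share of up to 1.01% of spots. Against these dentate spots, the striatum was at least 73.2-fold higher. Drd1 was at 0 in the medial habenula, where 5.62% of genes were called lower, among 494891 UMIs (up to 6.06 CPM), with the striatum at least 25.3-fold higher. Drd2 was at 0 in the habenula and in CA3 (among 533873 UMIs there), with the striatum at least 23.2-fold and 25.0-fold higher. The calls of a lower Adora2a in the dentate gyrus and a lower Drd1 in the habenula were both lost without trained 1 and without trained 2, and the latter also without untrained 2. The Adora2a limit holds for the dentate spots as drawn here: without averaging the marker scores over neighboring spots, its log2 difference was -0.42 (edgeR adjusted p = 0.620). These limits cover counting error only.

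The mean levels of the 6 striatal genes over the 4 sections were already lower 1 spot beyond the border of the band, which was taken as the largest patch of striatum spots (64 to 172 spots). The exceptions within a section were Drd2 and Rgs9 in untrained 1, at 45.9 and 192.6 CPM in the band and 48.9 and 195.6 CPM at 1 step, on 2 and 8 UMIs there. Drd1 averaged 142 CPM within it (SD 36.5, n = 4 sections), 73.4 at 1 array step, 48.6 at 2 steps, 21.0 at 3 steps and 8.44 at 11 or more. Drd2 went from 119 CPM (SD 54.7) in the band to 51.0 at 1 step and 6.55 at 11 or more. Adora2a went from 241 to 106 and 4.98 CPM. Ppp1r1b was at 1379 CPM in the band, 625 at 1 step, 182 at 4 to 5 steps and 80.9 at 11 or more. Dr1 was at 28.8 CPM in the band (SD 6.78) and 39.1 at 11 steps or more (SD 5.37), and the ranges of these 2 classes overlapped. The step classes were cut from the same spots as the regions and got no test.

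**Figure D3:**
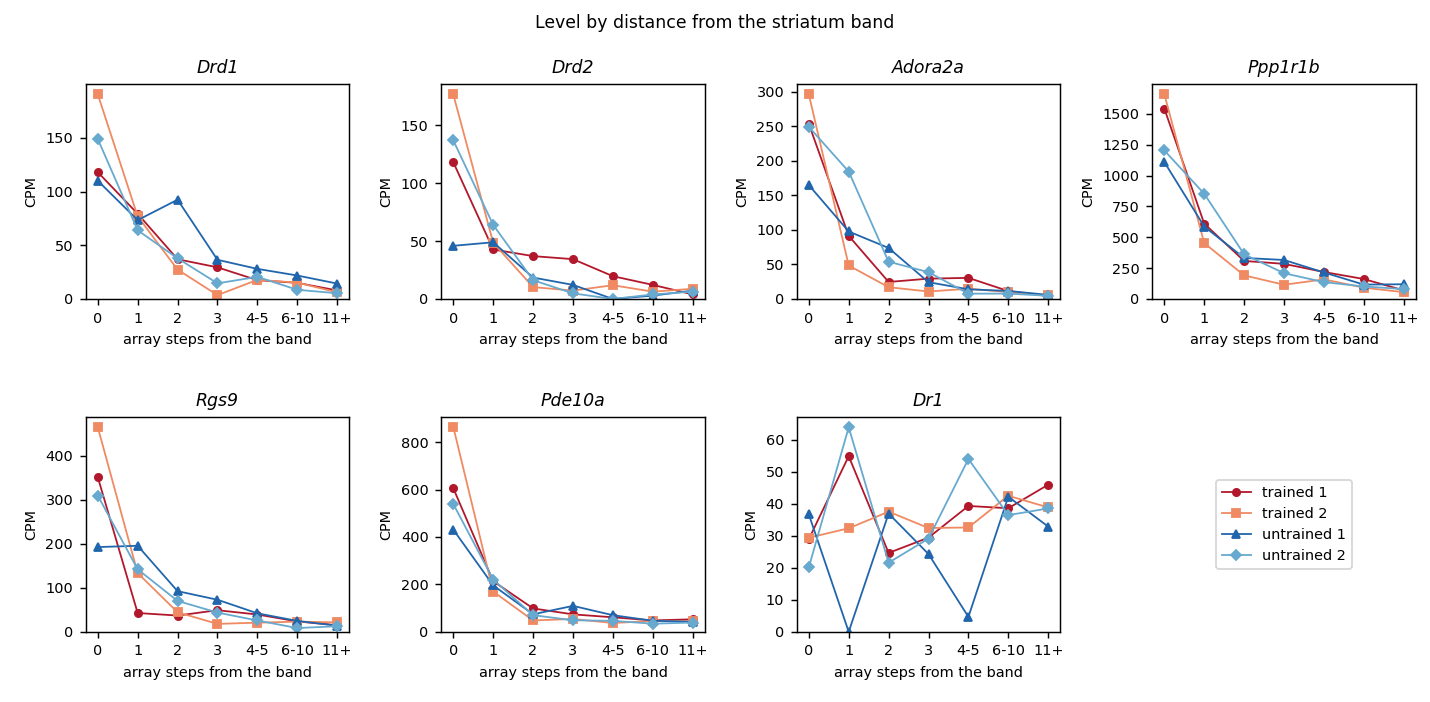
Lines give the level (y axis, CPM, from 0) of each gene in each of the 4 sections against the distance in array steps from the band of striatum spots (x axis; 0 is the band). All 6 striatal genes are lower at 3 steps than in the band in each section (Drd1 142 and 21.0 CPM on average), with some rises between single steps such as Drd2 in untrained 1 (45.9 to 48.9), and the Dr1 means are 28.8 CPM at both.

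To see how the genes were spread within it, the band was split at its median array row into an upper part (lower row numbers) and a lower part. Drd1 was higher in the upper part in 4 of 4 sections, at 144 against 97.0 CPM in trained 1, 216 against 151 in trained 2, 169.6 against 53.6 in untrained 1 and 171 against 132 in untrained 2. Adora2a was higher in the upper part in 1 of 4, with means of 230.2 and 248 CPM. Drd2 was higher in 3 of 4, and Ppp1r1b, Rgs9, Pde10a and also Dr1 in 4 of 4. Dr1 rested on 2 to 14 UMIs in each part, and its means were 31.4 and 26.7 CPM. The split was not aligned between sections and got no test; whether the receptors differed in their gradient was not tested.

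Single spots showed the same contrast, but detection moved with depth. At least 1 UMI of Ppp1r1b was found in 81.3%, 94.6%, 69.1% and 79.3% of the striatum spots (trained 1, trained 2, untrained 1, untrained 2), beside 16.1% to 20.2% of the other spots. For Drd1 it was 22.2%, 51.2%, 14.7% and 29.9%, beside 2.02% to 3.46% outside. For Drd2 it was 21.7%, 44.0%, 7.35% and 25.3%, beside 1.004% to 2.87%. The exact 95% interval of that last low striatum share of Drd2, 5 of 68 spots, was 2.43% to 16.3%, and intervals cover counting error only. Dr1 was found in 7.58%, 11.4%, 7.35% and 5.75% of striatum spots and in 4.36% to 11.3% of the others. The shares were highest in trained 2, the deepest section, and for 6 of the 7 genes lowest in untrained 1.

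With every spot thinned to 1000 UMIs, which left out 35, 9, 25 and 17 striatum spots with fewer, Drd1 was found in 11.04%, 15.3%, 2.33% and 11.4% of striatum spots. Drd2 was found in 13.5%, 14.01%, 6.98% and 11.4%. Ppp1r1b was found in 71.8%, 80.3%, 60.5% and 70.0%, against 7.85% to 12.98% of the other spots. The thinned shares spanned fewer percentage points than the unthinned ones, and the trained sections still had higher shares than untrained 1 for each of these 3 genes, although the thinned share of Drd1 in untrained 1 was 1 of 43 spots.

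Several of the 6 genes met in the same striatum spot. All 6 were found in 10 of 198 striatum spots in trained 1, 38 of 166 in trained 2, 0 of 68 in untrained 1 and 2 of 87 in untrained 2; the 0 allows a share of up to 4.41%. Outside the striatum, all 6 were found in 1 of 2574 spots in untrained 2 and in none of the 2291 to 2889 spots of each other section, which allows up to 0.131% where the fewest were seen. Drd1 and Drd2 were found together in 18, 50, 1 and 3 striatum spots. The shares of the 2 genes within 10 classes of spot depth would have given 13.99, 47.0, 1.43 and 7.10 such spots, so the ratios of observed to expected were 1.29, 1.06, 0.70 and 0.42 and lay on both sides of 1. Over all 15 pairs of the 6 genes in the striatum, the pooled ratio was 1.02 to 1.11. Drd2 and Adora2a had the highest at 1.11 (105 spots against 94.8), and Ppp1r1b and Pde10a the lowest at 1.02. Over the single sections these 2 ratios ran from 0.84 to 1.33 and from 0.98 to 1.08, on both sides of 1. The 6 pairs with Dr1 ran from 0.537 (Drd1) to 1.104 (Adora2a) on 11 to 39 spots. A spot holds several cells, so these values do not tell whether 1 cell held both transcripts. Over the whole section, the Drd1 and Drd2 ratio was 3.66, 3.63, 1.68 and 2.52.

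**Figure D4:**
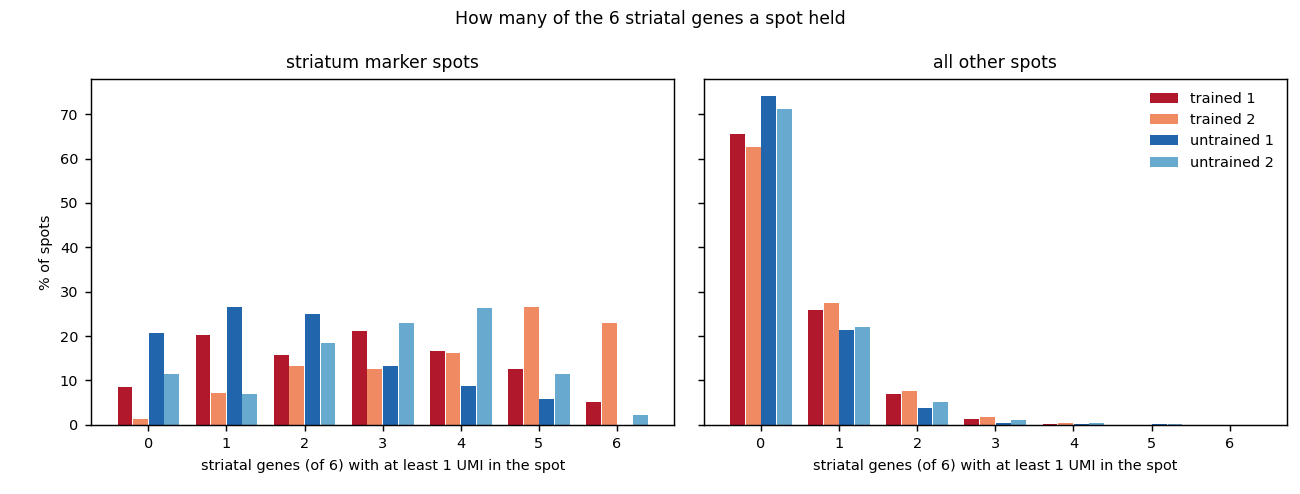
Bars give the percentage of spots (y axis, from 0) that held at least 1 UMI of 0 to 6 of the 6 striatal genes (x axis), for striatum spots (left) and all other spots (right) in the 4 sections. Striatum spots are spread over the whole range, up to 38 of 166 spots with all 6 in trained 2, and most other spots held none.

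The genes with the most similar pattern were sought over the 55 sums of regions and sections among 9685 genes, by Pearson's r of log2(CPM + 10), with the 7 genes themselves left out of the ranking. Among the genes ranked, Penk, the enkephalin precursor, came first for Drd1 (r = 0.81), Adora2a (0.84), Rgs9 (0.76) and Pde10a (0.75). Rasd2, which had served to set the striatum, came first for Drd2 (0.76). Tpbg and Adcy5 followed for Drd1 (0.78 each). Adcy5 encodes an adenylyl cyclase of the striatum that dopamine receptors regulate. Among the 6 genes, r ran from 0.66 (Ppp1r1b and Pde10a) to 0.83 (Adora2a and Ppp1r1b). Dr1 had an r of -0.16 to 0.09 with the 6, and the genes most like it included Eif3a (0.74) and Gcc2 (0.74). The sums share libraries and differ in depth, and these values are descriptions.

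Of 52 listed genes that act with the 7 in dopamine signaling, medium spiny neuron identity or Dr1 complexes, 34 could be tested between regions; 19 were higher in the striatum and 1 lower, beside the 12% and 6.84% of all genes tested in this contrast, with a median log2 difference of 0.97 beside 0.02 over all genes. The peptides Penk (4.22, SE 0.10), Tac1 (3.59, SE 0.13) and Pdyn (3.29, SE 0.19) were all higher. All 4 transcription factors tested were higher, from Foxp1 (2.07) to Meis2 (3.06). Of the receptor-coupled G protein and cyclic AMP genes 6 of 9 were, led by Adcy5 (2.85), Gng7 (2.71), a G protein subunit, and Pde1b (2.67), another phosphodiesterase. Of the phosphatase and kinase genes 6 of 8 were, led by Arpp21 (2.52) and Arpp19 (1.78), relatives of DARPP-32 in name and regulation, and Ptpn5 (1.58), the striatum-enriched phosphatase STEP.

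Of the 4 tested genes of dopamine synthesis, transport and breakdown 0 were called (edgeR, adjusted p = 0.0996 to 0.559), beside 12% of all genes called higher and 6.84% lower. Th, which encodes the enzyme that makes the dopamine precursor, had 2 to 3 UMIs in the striatum of each section, and Slc6a3, the dopamine transporter, had none. None of the other dopamine receptor genes had enough counts to be tested between regions: Drd3 had no UMI in any section, Drd4 had 1 to 10 per section and Drd5 9 to 33. Of the partners of Dr1, 6 of 12 were tested and Drap1, its dimer partner, was lower in the striatum (-0.37, SE 0.12, edgeR adjusted p = 0.0151). Of 7 genes listed for interneurons, 5 were higher (12% of all genes were), but Gad1, Gad2 and Slc32a1 (0.95, 1.37 and 1.76) serve all GABAergic neurons, medium spiny neurons included. Among the others, Npy (0.81) and Sst (0.64) were higher, and Pvalb (-0.06) and Vip (-0.55) were not called.

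Between trained and untrained mice, whole sections were compared first. Pde10a was at 92.6 and 110.1 CPM in the trained sections and at 60.4 and 62.4 CPM in the untrained. Rgs9 was at 41.6 and 58.6 against 27.8 and 29.2 CPM, and Drd2 at 16.3 and 22.2 against 7.86 and 11.9 CPM. Adora2a was at 26.3 and 30.3 against 14.9 and 21.0, and Ppp1r1b at 214 and 205 against 168 and 158 CPM. For these 5 genes both trained sections were above both untrained ones, beside 28.8% of all genes tested, with 12.1% lower in both. Drd1 (19.8 and 24.8 against 21.9 and 14.7 CPM) and Dr1 (42.3 and 38.0 against 32.6 and 38.1 CPM) overlapped.

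None of the 7 genes passed the test between the groups (edgeR, 2 sections per group), beside 0.0145% of the 13810 genes tested (2 genes); 5 of the 7 and 1099 of all genes had an unadjusted p under 0.05. The log2 differences, trained over untrained, were 0.84 (SE 0.24, edgeR adjusted p = 0.536) for Drd2, 0.73 (SE 0.16, 0.354) for Rgs9, 0.64 (SE 0.12, 0.263) for Pde10a, 0.55 (SE 0.19, 0.582) for Adora2a and 0.29 (SE 0.12, 0.597) for Ppp1r1b. In edgeR, the difference was 0.25 for Drd1 (SE 0.21, adjusted p = 0.792) and 0.09 for Dr1 (SE 0.15, adjusted p = 0.901). With 1 section left out, the differences ran from 0.63 to 1.21 for Drd2, 0.51 to 0.90 for Rgs9 and 0.56 to 0.70 for Pde10a. Those of Adora2a and Ppp1r1b ran from 0.36 to 0.84 and from 0.19 to 0.37. Calls came and went with the method: DESeq2 called Pde10a (0.63, adjusted p = 0.0446) among 21 genes in all, and edgeR called Drd2, Rgs9 and Pde10a among 848 genes without trained 1 and Pde10a among 40 genes without trained 2.

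The amount of striatum moved with the groups. Striatum spots held 7.08% and 7.68% of the UMIs in the trained sections and 3.30% and 3.90% in the untrained, and all 7 striatum markers had positive differences too (median 0.37, none called), beside a median of 0.01 over all genes. With striatum spots left out, the log2 differences were -0.39 for Adora2a, -0.36 for Ppp1r1b and -0.29 for Drd1, the opposite sign, and 0.34 for Drd2, 0.13 for Pde10a and 0.11 for Rgs9 and Dr1; none was called (edgeR adjusted p = 0.628 to 0.906). Drd2 (8.92 and 9.44 against 6.68 and 6.96 CPM) and Pde10a were still higher in both trained sections and Adora2a was lower in both, beside 29.5% of all genes higher and 12.2% lower.

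**Figure D5:**
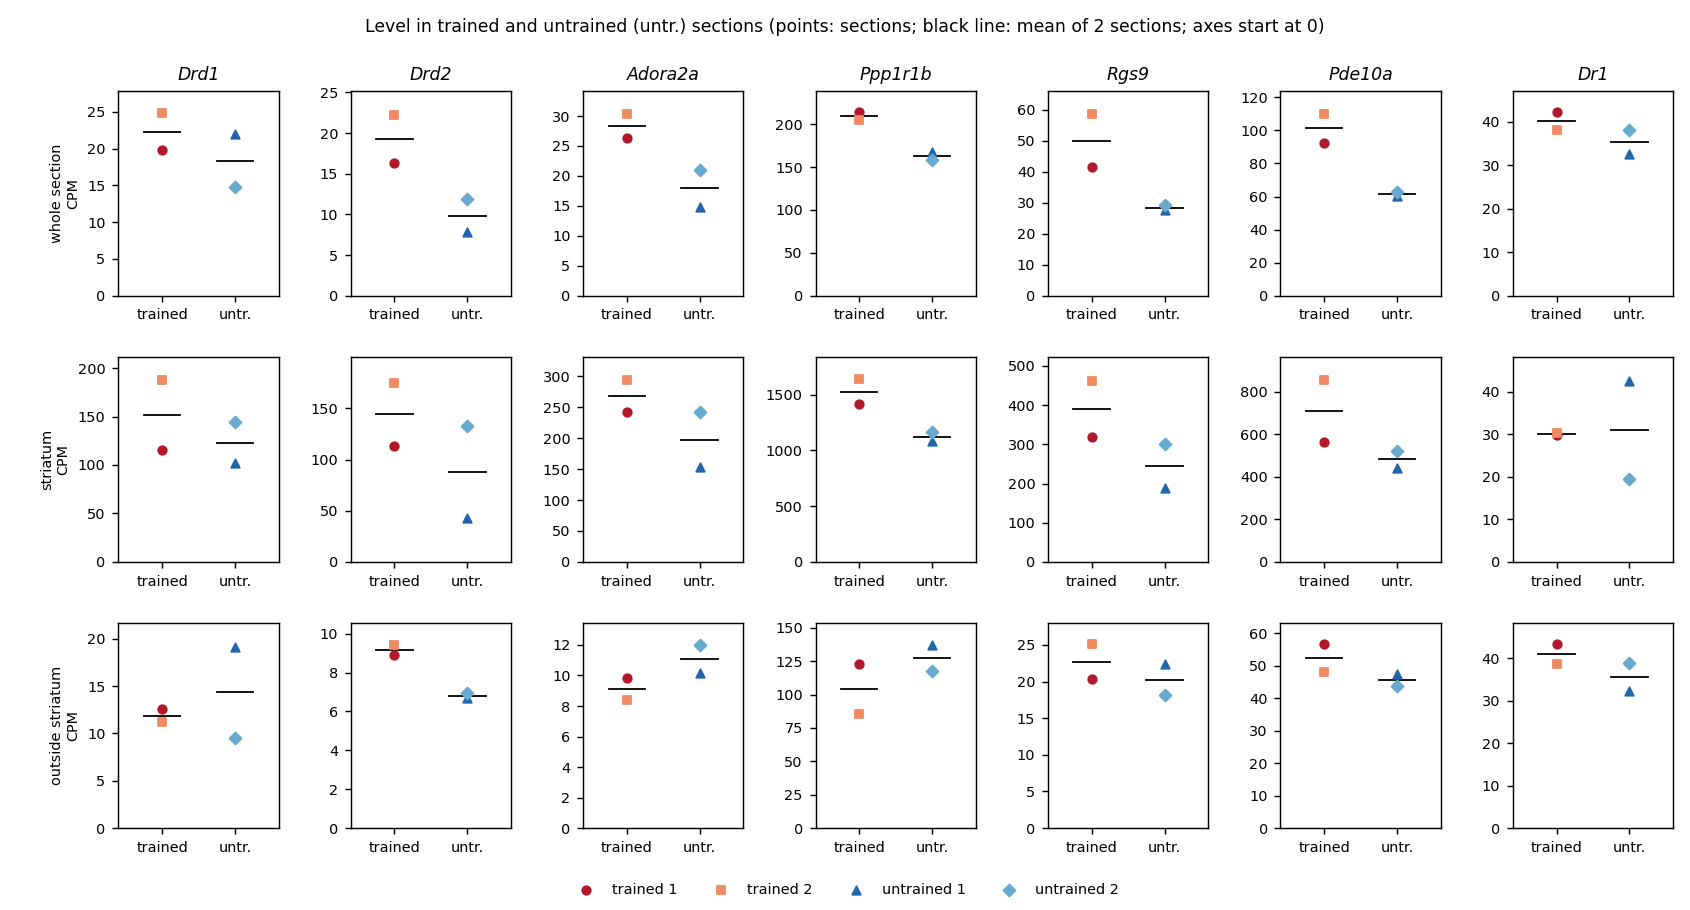
Points give the level of each gene (columns; y axis in CPM from 0) in the 2 trained and 2 untrained sections over whole sections, striatum spots and all other spots (rows), and black lines give the mean of 2 sections. Whole-section values separate for 5 genes such as Pde10a (92.6 and 110.1 against 60.4 and 62.4), striatum values for 4 and values outside the striatum for 3.

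Within striatum spots alone, the trained sections were higher without overlap for 4 of the 7 genes, beside 20.3% of all genes (15.2% were lower): Ppp1r1b (mean 1527 CPM, SD 162, against 1123, SD 57.8; n = 2 each), Adora2a (268, SD 36.4, against 197, SD 62.2), Rgs9 (390.3, SD 100.2, against 244, SD 79.4) and Pde10a (709, SD 206, against 482, SD 55.5). The gap was narrow for Adora2a, whose lower trained section was at 242 and higher untrained section at 241 CPM. Drd1, Drd2 and Dr1 overlapped. None of the 7 was called, beside 0.0149% of 6690 genes (1 gene); unadjusted p was under 0.05 for 3 of the 7 and for 409 of all genes. The log2 differences were 0.56 (SE 0.22, edgeR adjusted p = 0.796) for Rgs9, 0.49 (SE 0.20, 0.796) for Pde10a, 0.39 (SE 0.19, 0.815) for Ppp1r1b, 0.48 (SE 0.31, 0.872) for Drd2, 0.32 (SE 0.22, 0.886) for Adora2a, 0.20 (SE 0.27, 0.969) for Drd1 and 0.10 (SE 0.54, 0.997) for Dr1. With 1 section left out, the difference of Drd2 ran from 0.09 (without untrained 1) to 1.75 (without untrained 2), and those of Adora2a, Rgs9 and Pde10a from 0.10 to 0.78, 0.33 to 1.04 and 0.27 to 0.69.

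The 6 striatal genes had a median of 0.44 there, beside -0.002 over all genes. The markers that had set the region had positive differences in 5 of 7 (median 0.17), from Six3 at -0.88 to Gpr6 at 1.01, and the part of spot makeup in the result was not tested. The 7 genes listed for interneurons, 3 of which medium spiny neurons also use, summed to 1787 and 2228 CPM in trained striatum, against 1764 and 2211 CPM in the untrained sections; none was at 0, and single members differed by -0.71 (Npy) to 0.34 (Pvalb) on the log2 scale, none called. Blood markers summed to 714 and 452 against 741 and 748 CPM, and astrocyte markers to 1004 and 1209.8 against 1312 and 1149 CPM. Microglial markers summed to 218 and 229 against 179 and 195 CPM, and white matter markers to 3837 and 7170 against 5292 and 5704 CPM. Without overlap between the groups, microglial markers were thus higher and blood markers lower in the trained striatum; astrocyte and white matter markers overlapped. Of the 52 pathway genes 30 were tested and none was called, with 21 positive differences and a median of 0.15. All 8 phosphatase and kinase genes had positive differences (median 0.23), among them Arpp21 at 0.55 (edgeR adjusted p = 0.738), as did the peptides, with Pdyn at 0.77 (SE 0.26, edgeR adjusted p = 0.657). Of the G protein and cyclic AMP genes, 5 of 9 had positive differences (median 0.06), from Prkaca at -0.48 to Pde1b at 0.48.

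Over 13 regions with at least 10 spots in every section, 36 tests of the 7 genes could be made and none was called, beside 0.0388% of all tests (25). An unadjusted edgeR p under 0.05 was found in 6 of the 36 and in 3710 of all 64473 tests. The lowest adjusted p was that of Ppp1r1b in the thalamus, at 39.1 and 43.3 CPM in the trained and 86.3 and 61.9 CPM in the untrained sections (log2 difference -0.84, SE 0.25, edgeR adjusted p = 0.497). There both trained sections were lower, whereas both were higher in the striatum. How many of all genes separate in this way in the thalamus was not counted. Whether the training difference of a gene in 1 region differed from that in the others was tested in 91 cases and called in none, beside 0.0375% of all cases. Ppp1r1b in the striatum had the lowest adjusted p (0.67, SE 0.18, edgeR adjusted p = 0.372).

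In the hippocampus, spots were also split by Gt(ROSA)26Sor, the feature from which the methods read the Arc-driven tag; in the annotation it is an antisense gene of the Rosa26 locus, and whether its UMIs came from the reporter or from that gene was not tested. At least 1 UMI was found in 58 of 172 CA1, CA3 and dentate spots in trained 1, 48 of 159 in trained 2, 4 of 125 in untrained 1 and 72 of 170 in untrained 2. Positive spots were deeper, with a median of 4207 against 2204.5 UMIs in trained 1 and 1382 against 1128 in untrained 1. Dr1 was at 63.4 CPM in positive and 29.2 in negative spots of trained 1, and at 65.4 and 41.0 CPM in trained 2. In untrained 2 it was at 45.9 and 36.0 CPM, and the 4 positive spots of untrained 1 held no Dr1 UMI among 5853, which allows up to 513 CPM. Dr1 was thus higher in positive spots in the 3 sections that could show it, on 8 to 19 UMIs per group of spots. In these sections (trained 1, trained 2, untrained 2) 37.8%, 51.6% and 48.6% of CA3 spots were positive. In CA1 it was 25.0%, 29.2% and 40.4%, and in the dentate gyrus 36.7%, 20.6% and 41.0%. Mean Dr1 levels were 55.8 CPM in CA3, 49.9 in the dentate gyrus and 39.1 in CA1. The part of this makeup in the difference was not tested.

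The difference of Dr1 was 0.78 in trained mice (SE 0.43, edgeR adjusted p = 0.9998), 0.11 in untrained mice (SE 0.65) and 0.44 over both (SE 0.39, edgeR adjusted p = 0.999). The difference between the trained and untrained effects was 0.67 (SE 0.79) and was not called either. Ppp1r1b (-0.29 over both, SE 0.33) and Pde10a (0.01, SE 0.38) were the only other genes of the 7 with enough counts. None of their 12 tests was called or had an unadjusted p under 0.05; 0.0151% of genes were called in trained mice and 0% in untrained. Of the receptors, Drd1 had 0 to 4 UMIs per group of spots, Drd2 0 to 2 and Adora2a 0 to 2, too few to compare.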

How the data were processed

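The authors deposited raw UMI counts per gene and spot, restricted to spots over tissue, from 10x Visium libraries of 1 section per mouse (2 trained, 2 untrained). Per the file headers the matrices were made with Space Ranger 1.2.2; the methods name a later Space Ranger with mm10, and the submitters' processing notes list Cell Ranger 8, STAR and a newer mouse build, so the aligner settings behind the counts are not settled. Gene positions and promoters were taken from GRCm38 annotation and are independent of the counts.

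Spots were assigned to 14 regions by the highest mean marker score (at least 0.5), averaged over a spot and its up to 6 neighbors, with hippocampal and habenular spots kept in their largest patch. Counts were summed per section, or per region and section (at least 10 spots), since spots of 1 mouse are not replicates. The sums were tested with edgeR 4.0.16 (TMM, low-count filter, quasi-likelihood test, two-sided) in R 4.3.3, with Benjamini-Hochberg adjustment over all genes tested and a threshold of 0.05. Alternatives used DESeq2 1.42.0, limma 3.58.1 (voom), no filter, thinned sums (3560294 UMIs), no neighbor averaging, Leiden clusters (resolution 1.5), high-share genes left out, a replicate block, and each section left out. Leaving out spots within 3 steps of the striatum was added after seeing the data. Scripts were tested on simulated data.

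No array barcode identifies cells: 3147 of 4153 barcodes occurred in 2 or more sections because they mark array positions. Totals of 3560294 to 10330015 UMIs per section limited precision most in untrained 1; intervals (exact binomial, 95%) and floors (3 counts) cover counting error only. With 1 section per mouse and 2 mice per group, p-values between trained and untrained sections measure the spread between these sections. Those of tests between regions measure the spread between region sums, several of which come from each section, and do not count mice as replicates. In the Gt(ROSA)26Sor split the fit took the spread from all genes together, so those p-values hardly measure the spread of a single gene between sections.

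The genes named were the 7 listed genes, the 52 pathway genes and, for each of the 7, the 3 genes with the most similar profile, among genes with at least 300 UMIs; some of the latter are not reported here. The marker genes named beside them (Gpr6, Six3 and the genes listed for interneurons and microglia, with values) were picked after their values were seen. The members and lists were chosen with earlier results of these data known.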

Additional observations from a re-analysis of the deposited data

How the results depend on the processing

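The 6 striatal genes were called higher in the striatum under every alternative that could test them; Drd2 could not be tested without neighbor averaging. The number of all genes called there, 1385, ranged from 704 (without trained 2) to 1397, with 888 without trained 1. Same-numbered sections did not deviate together (r = 0.0190 over 13810 genes), so the replicate numbers do not pair the samples; with the replicate number as a block, 2 of the 7 genes were called between trained and untrained whole sections (Rgs9 and Pde10a, edgeR adjusted p = 0.03998 and 0.0244) and 47 of all genes, and 196 within regions. Without the block, the counts of the 7 genes called in whole sections were 0 with edgeR, 1 with DESeq2, 3 with no filter on low counts (Drd2, Rgs9 and Pde10a) and 0 to 3 with a section left out. DESeq2 gave no adjusted p for Drd1, Drd2, Adora2a, Rgs9 and Dr1. Counts of all genes were 2 with edgeR, 21 with DESeq2, 211 with no filter, 7 with thinned sums and 2 to 848 with a section left out, the highest without trained 1. Within regions none of the 7 genes was called in any setting, and counts of all genes were 25 with edgeR, 6 with DESeq2, 12 with limma voom, 133 with no filter, 4 with thinned sums, 46 without neighbor averaging, 72 with Leiden clusters and 70 to 332 with a section left out, again the highest without trained 1. For Gt(ROSA)26Sor-positive spots, 1 gene was called with edgeR, 0 with DESeq2, limma voom and no filter, 67 when at least 2 UMIs were required, and 0 to 26 with a section left out.

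Signs turned in 17 cases. Whole sections without striatum spots gave -0.39 for Adora2a, -0.36 for Ppp1r1b and -0.29 for Drd1. With a section left out, the whole-section values ran from -0.047 to 0.22 for Dr1 (negative without trained 1, and at 0 to 2 decimals, -0.00015, without untrained 1) and from -0.058 (without untrained 2) to 0.53 for Drd1. In the striatum they ran from -0.54 (without untrained 2) to 0.56 for Dr1 and from -0.11 (without trained 2) to 0.56 for Drd1. For Gt(ROSA)26Sor-positive spots, Pde10a was at -0.088 with DESeq2 and -0.12 with at least 2 UMIs, and ran from -3.73 to 0.13 with a section left out; Dr1 ran from -2.96 to 0.56. Both low ends came without untrained 2, which left the untrained side with 4 positive spots. Between regions, Ppp1r1b in CA1 was 0.33 without neighbor averaging, and Leiden clusters gave -0.21 for Drd2 in the thalamus, -0.22 for Adora2a and -0.87 for Drd1 in the choroid plexus. The cause was not tested for any of these changes. Of the other values of single genes, 392 kept their sign and side of the threshold, 51 no longer passed it and 10 newly passed it.

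In the depth available, a receptor gene rested on 5 to 233 UMIs in the striatum of a section, with the fewest of each in untrained 1 (Drd1 12, Drd2 5 and Adora2a 18). With 2 sections per group, a difference that did not pass the test is not shown to be absent. The mean share of striatum spots with both Drd1 and Drd2 was 11.03%, 1.72% with spots thinned to 1000 UMIs and 2.23% at 2 or more UMIs of each, and the SD over the 4 sections was 13.1 percentage points in the first case.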
